A study of Mus musculus with 3 samples.

Results

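A set of 10 enzymes and enzyme subunits that break down leucine, isoleucine and valine were followed across 3 cell fractions of mouse epididymal fat. The members were chosen by name, with earlier results of these data known: Bcat1, Bcat2, Bckdha, Bckdhb, Dbt, Ivd, Mccc1, Mccc2, Hibch and Hibadh. They were read at every probe on the array that carries 1 of these symbols. All 10 were on the array, among 37324 genes in all, and 25 probes of 60 bases carried their names. The fractions came from male C57/BL mice at 20 weeks of age, and the records name no genetic change and no drug for any of them. Collagenase-dispersed fat was spun first at 9 g for 1 s and the cells of the lower phase were stromal vascular cells (SVC). The floating cells were spun again at 226 g for 3 min, which left small proliferative adipocytes (SPA) in the sediment and mature white adipocytes (MWA) afloat. SVC and SPA were grown in DMEM to 90% confluence before RNA was taken, and the records state no culture for MWA. Each fraction was hybridised to 1 Agilent 1-colour array, so no difference has a replicate check, no test was possible, and fraction, culture and preparation cannot be told apart. The sample titles carry 1 date for SVC and SPA and a later one for MWA, with no word on what the date marks, so it too cannot be told apart from the fraction in every comparison with MWA. The number of mice behind each array is not given in the sources used here.

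Branched-chain amino acids are broken down mainly outside the liver, and fat is 1 of the tissues known for it. A branched-chain aminotransferase first moves the amino group to 2-oxoglutarate. Bcat2 encodes the mitochondrial form of that enzyme and Bcat1 the cytosolic form. The resulting keto acids are decarboxylated by the branched-chain keto acid dehydrogenase (BCKDH), a mitochondrial complex whose E1 subunits are encoded by Bckdha and Bckdhb and whose E2 core is encoded by Dbt. The paths then part. Ivd (isovaleryl-CoA dehydrogenase) and the 2 subunits of methylcrotonyl-CoA carboxylase, Mccc1 and Mccc2, act on the leucine path, while Hibch (3-hydroxyisobutyryl-CoA hydrolase) and Hibadh (3-hydroxyisobutyrate dehydrogenase) act on the valine path.

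A probe is a single DNA sequence, and several of these genes are read by more than 1, at places in the transcript that can differ in what they detect. The 5 probes below are shown because the results turn on how far separate probes of a gene agree. Positions are those of the array annotation on mm9, and bases in the transcript are counted as the array files give them. The Bcat1 probe at base 856 of its transcript lies on the minus strand at chr6:144967714-144967773, and the Bcat2 probe at base 357 on the plus strand at chr7:52831204-52831263. A Mccc1 probe at base 889 lies on the minus strand at chr3:35883937-35883996. The Mccc2 probe at base 1180 covers chr13:100730889-100733779 on the minus strand, 2891 bases of genome for 60 bases of probe, so its sequence is split in the genome. The last sequence belongs to a Mccc1 probe designed on an Ensembl transcript, on the minus strand at chr3:35860716-35860775, and its capitals mark 8 units of the letters GATA in a row.
Bcat1: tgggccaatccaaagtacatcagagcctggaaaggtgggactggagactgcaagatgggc
Bcat2: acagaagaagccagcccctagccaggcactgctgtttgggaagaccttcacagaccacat
Mccc1: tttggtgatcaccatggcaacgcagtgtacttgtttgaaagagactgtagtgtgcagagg
Mccc2: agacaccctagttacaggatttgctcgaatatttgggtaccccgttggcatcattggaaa
Mccc1, Ensembl transcript: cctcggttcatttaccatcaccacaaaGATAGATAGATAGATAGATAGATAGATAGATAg

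Levels are log2 values with 0 set at each array's own 75th percentile. Where a gene had several probes, it was read at the brightest on average. At that probe each of the 10 genes was well above background on all 3 arrays, which is the call of the scanner software that a spot exceeds its local background. Of the 25 probes, 23 were well above background on every array, and the other 2, 1 of Mccc2 and 1 of Hibch, were not on any. No spot of the 25 was marked as outlying and 0 spots of the array were saturated. Probes printed 10 times or more on an array differed among their spots with a median SD of 0.039 in SVC, 0.042 in SPA and 0.05 in MWA (log2), which covers the array surface but neither the labelling nor the animals. At levels under -2 this SD was 0.146 to 0.187, from 5 to 9 repeated probes per array. Markers of the cell types that the fractions could hold were read in the same way. The summed signal of 7 adipocyte markers was 6.02 times the 75th percentile in SVC, 53.7 in SPA and 2250 in MWA, with Adipoq and Plin1 not well above background in SVC. Endothelial markers summed to 1.97, 3.91 and 24.5 over 5 genes, and haemoglobin genes to 0.32, 0.355 and 734 over 5 genes, of which 3 were not well above background in SVC or SPA. Macrophage markers summed to 132, 168 and 75.2 over 6 genes. Mesothelial markers summed to 35.8, 9.52 and 22.3 over 6 genes, and fibroblast markers to 248, 118 and 368 over 6. The last 2 sums also hide genes that went opposite ways. In each of these lists, 3 of 6 genes were higher in MWA than in SVC and 3 were lower. The fibroblast list ran from 9.05-fold higher for Lum to 5.76-fold lower for Pdgfra. The mesothelial list ran from 1.49-fold higher for Krt19 to 5.88-fold lower for Krt8. Of 7 lymphocyte markers, SVC had 3 and SPA and MWA had 5 each at levels well above background. The part of these cells in the levels below was not tested, and fewer cells of a type cannot be told apart from less RNA per cell.

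Between SPA and MWA, 9 of the 10 genes had the higher level in MWA, and Bcat1 had the lower. The fold was at least 5 in favour of MWA for 7 genes, the limit that the study used, against 5.47% of the 24101 genes well above background on either array. One gene, Bcat1, was at least 5-fold lower, against 3.97% of all genes. At a limit of 2-fold, 9 genes were higher and 1 was lower, against 15.7% and 18.0% of all genes. The median log2 ratio of the 10 genes was 2.49, and the median over the 20777 genes measured on both arrays was -0.08.

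**Figure D1:**
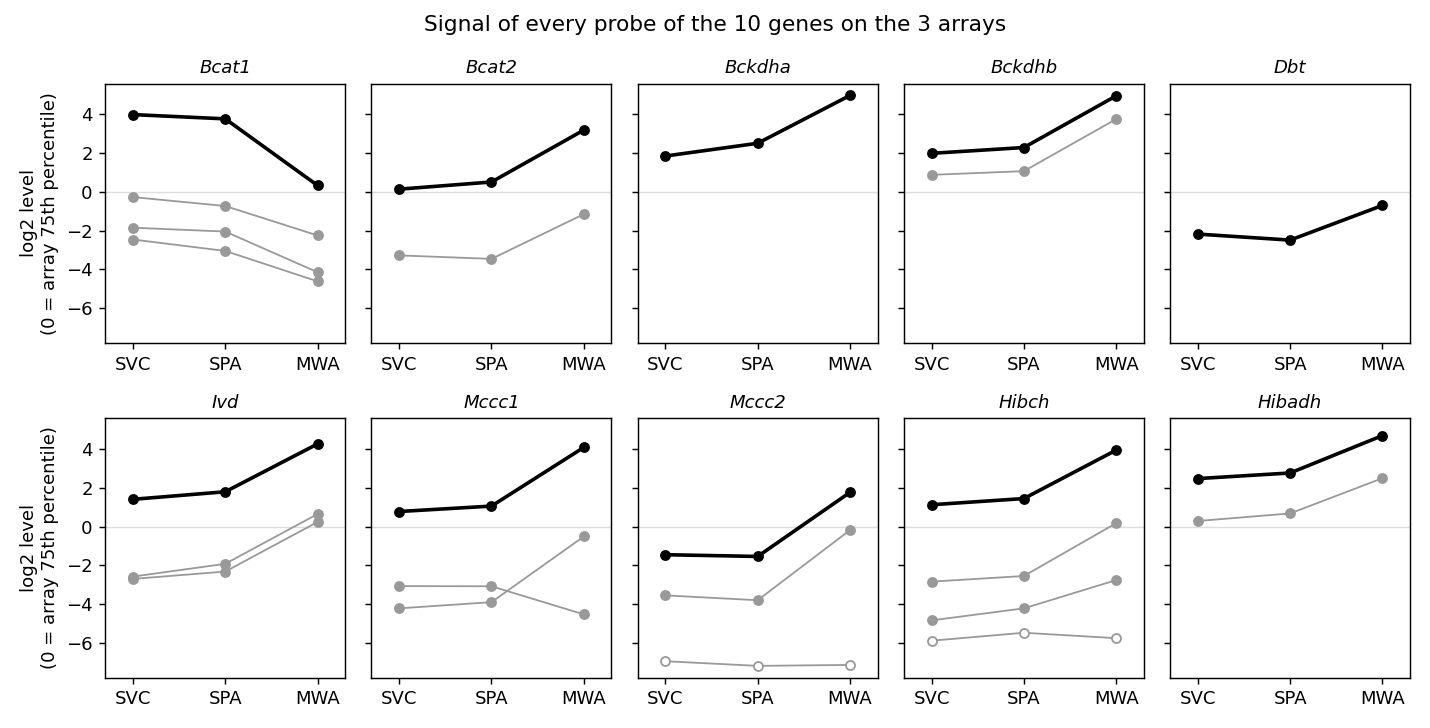
Log2 level (y axis, 0 is the 75th percentile of each array) of every probe of the 10 genes in SVC, SPA and MWA (x axis), 1 array each. Black marks the probe at which a gene was read, grey its other probes and open circles spots not well above background; 9 black lines climb from SPA to MWA and that of Bcat1 drops from 3.77 to 0.33.

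The 2 aminotransferases, which carry out the same first step in different compartments, went opposite ways. The cytosolic Bcat1 had a level of 3.99 in SVC, 3.77 in SPA and 0.33 in MWA, or 15.9, 13.6 and 1.25 times the 75th percentile. SVC and SPA were thus close to each other and MWA was the low fraction. The fold was 10.9 between SPA and MWA, and 99.0% of the measured genes had a larger ratio of MWA over SPA. The mitochondrial Bcat2 had a level of 0.14 in SVC, 0.51 in SPA and 3.19 in MWA, which was 6.44-fold above SPA. Here MWA was the high fraction, and 3.58% of genes had a larger ratio. The log2 ratios of MWA over SPA of Bcat2 and Bcat1 lay 6.13 apart, a 70.0-fold shift in the proportion of the 2 signals. Those of MWA over SVC lay 6.72 apart. These gaps hold for the probes read. At the median over probes, the log2 ratios of MWA over SPA were closer, at 2.5 for Bcat2 and -1.84 for Bcat1.

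In MWA against SPA, the direction of both aminotransferases was shared by their other probes, and the size was not. All 4 probes of Bcat1 were lowest in MWA. The 3 that were not read had levels of -0.27, -0.73 and -2.25, of -1.85, -2.05 and -4.15, and of -2.46, -3.05 and -4.62 in SVC, SPA and MWA. Their fold between SPA and MWA was 2.87, 4.29 and 2.97, so Bcat1 passed the 5-fold limit at 1 of its 4 probes and the 2-fold limit at all 4. The last of these is the probe at base 856 printed above, and its level in MWA lies close to the lowest level of any spot well above background there, -5.15. The Bcat2 probe at base 357 read -3.28 in SVC, -3.46 in SPA and -1.15 in MWA, 4.99-fold higher in MWA than in SPA.

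The 3 subunits of BCKDH were all higher in MWA. Bckdha, the E1 alpha subunit, had a level of 1.85 in SVC, 2.51 in SPA and 4.98 in MWA, 5.53-fold higher in MWA than in SPA. It also had the largest difference of the 10 genes between SPA and SVC, 1.58-fold. Bckdhb, the E1 beta subunit, read 1.99, 2.29 and 4.96, a fold of 6.35, and its second probe, at 0.88, 1.07 and 3.76, gave 6.45. Both E1 subunits therefore moved by nearly the same amount, with log2 ratios of MWA over SPA only 0.2 apart. Dbt, the E2 core, read -2.18 in SVC, -2.49 in SPA and -0.7 in MWA. Its fold between SPA and MWA was 3.46, the smallest of the 9 genes that were higher, and it rests on 1 probe at a level where repeated spots spread more.

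The 2 largest increases, those of Mccc2 and Mccc1, were on the leucine path. Ivd, which oxidises isovaleryl-CoA, had a level of 1.41 in SVC, 1.8 in SPA and 4.27 in MWA, 5.53-fold above SPA in MWA, and its other 2 probes each gave 5.9-fold. Mccc2, the beta subunit of methylcrotonyl-CoA carboxylase, read -1.45, -1.54 and 1.77, a fold of 9.91, the largest increase of the 10. The split Mccc2 probe printed above gave 12.3-fold, from -3.8 in SPA to -0.18 in MWA. Mccc1, the biotin-carrying alpha subunit, read 0.78, 1.06 and 4.09, a fold of 8.18. The 2 subunits of this enzyme thus differed by 0.28 in their log2 ratio of MWA over SPA.

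One probe of Mccc1 disagreed with the others. The probe at base 889 was higher in MWA as well, at -4.22 in SVC, -3.9 in SPA and -0.51 in MWA, a log2 ratio of 3.39. The probe on the Ensembl transcript, with the GATA run, read -3.07 in SVC, -3.08 in SPA and -4.53 in MWA, 2.72-fold lower in MWA than in SPA. That MWA level lies close to the lowest level of any spot well above background there, -5.15. This probe is the only 1 of the 13 other probes measured on both arrays whose ratio of MWA over SPA went against the probe at which its gene was read. A run of 4 or more GATA units, on either strand, occurs in 2 of the 56605 probes of the array. Whether the run bears on the reading was not tested.

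Both genes of the valine path were higher in MWA. Hibch had a level of 1.13 in SVC, 1.45 in SPA and 3.95 in MWA, a fold of 5.67 between SPA and MWA. Its other 2 measurable probes gave 6.65-fold and 2.75-fold, the second of them on an Ensembl transcript at levels from -4.84 to -2.76. Hibadh, the next enzyme, read 2.48, 2.77 and 4.7, a fold of 3.82, and its second probe gave 3.52. Hibadh and Dbt were the 2 genes that were higher in MWA without passing the 5-fold limit.

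**Figure D2:**
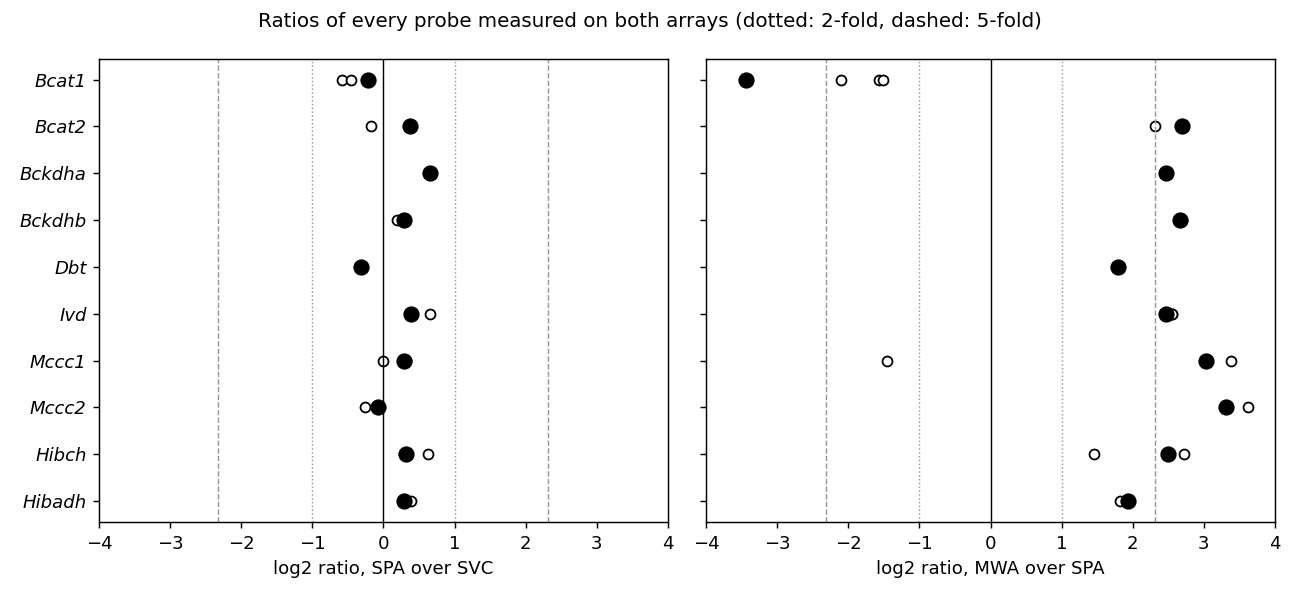
Log2 ratio of SPA over SVC (left) and of MWA over SPA (right) for every probe of the 10 genes measured on both arrays; filled circles are the probe at which a gene was read, open circles the others. Dotted and dashed lines mark 2-fold and 5-fold: the left panel stays within -0.59 to 0.66, the right one spans -3.44 to 3.62.

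SPA and SVC, the 2 cultured fractions, were less than 2-fold apart in each of these genes. The ratio of SPA over SVC ran from -0.32 for Dbt to 0.66 for Bckdha on the log2 scale, with a median of 0.29 against 0.05 over the 20822 genes measured on both arrays. No gene of the 10 was 5-fold or 2-fold apart in either direction. Of the 22808 genes well above background on either array, 0.32% were at least 5-fold higher in SPA and 0.351% at least 5-fold lower. At 2-fold, 3.89% were higher and 3.24% lower. With shares this small, counts of 0 among 10 genes do not set them apart. The level was higher in SPA for 7 genes and lower for Bcat1, Dbt and Mccc2. Of the 3 lower genes, Mccc2 differed by 1.06-fold. The median of 0.05 over all genes also lies above 0, so higher levels in SPA were the more common there too. The 7 of 10 therefore do not set these genes apart. For Bcat2 the 2 probes pointed opposite ways, 0.37 and -0.18. The adipocyte markers stood otherwise, as 5 of the 7 passed 5-fold in favour of SPA, and their median was 5.27 on the log2 scale, counting 2 lower bounds.

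MWA over SVC gave the same counts as MWA over SPA, 7 genes at least 5-fold higher against 5.72% of 23596 genes and 1 at least 5-fold lower against 3.96%. At 2-fold, 9 were higher and 1 was lower, against 17.2% and 18.0%. The median of the 10 was 2.91, against -0.07 over the 20174 genes measured on both arrays. These ratios share the MWA array with those over SPA and are not a second look at it. The highest was that of Mccc1, at 9.97-fold, followed by Mccc2 at 9.34-fold, Bckdha at 8.74-fold and Bcat2 at 8.31-fold. The lowest of the 9 was Dbt, at 2.78-fold, and Bcat1 was 12.7-fold lower.

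**Figure D3:**
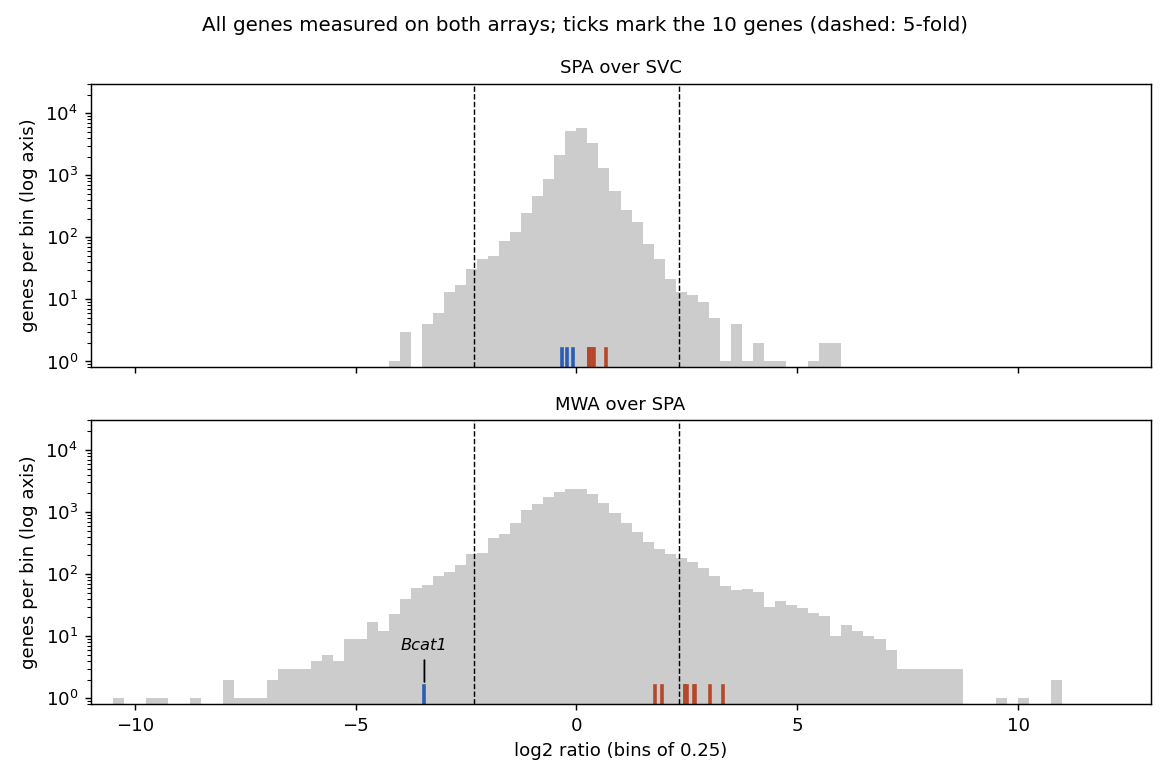
Number of genes (y axis, log scale) by log2 ratio in bins of 0.25 (x axis), for genes measured on both arrays, SPA over SVC above and MWA over SPA below; coloured ticks mark the 10 genes and dashed lines 5-fold. In the upper panel the ticks lie in the centre, and in the lower panel 9 lie between 1.79 and 3.31 and Bcat1 at -3.44.

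The other enzymes of the pathway were read next, 18 genes from 4 lists. All 18 had a log2 ratio of MWA over SPA above 0, with a median of 2.21 against -0.08 over all genes measured on both arrays. Of these, 9 were at least 5-fold higher and 0 at least 2-fold lower, against 5.47% and 18.0% of all genes. Read at the median of the probes of each gene, which was added after the data were seen, 6 of the 18 passed 5-fold, and Auh, Acadsb and Echs1 no longer did. Of their 29 probes measured on both arrays, 28 were higher in MWA and 1, of Mmab, was lower. On the leucine path, Auh (methylglutaconyl-CoA hydratase) was 5.14-fold higher in MWA, while its other probes measured on both arrays gave 2.52-fold, 3.05-fold and 5.9-fold. On the isoleucine and valine paths, 5 of 8 genes passed 5-fold in favour of MWA. Aldh6a1, methylmalonate semialdehyde dehydrogenase, which takes up the product of Hibadh, had the largest ratio of the 18. It read 0.17 in SVC, 0.35 in SPA and 4.88 in MWA, a fold of 23.1. Next to it stood Ehhadh at 9.03-fold, Acadm at 6.86-fold, Echs1 at 6.02-fold and Acadsb, the dehydrogenase of the isoleucine path, at 5.55-fold. Second probes of Echs1 and Acadsb gave 3.25-fold and 4.01-fold, and the last probe of Acadsb was not well above background in MWA and gave at least 1.09-fold lower. Several of these also serve fatty acid oxidation. The lowest of that list was Acad8, isobutyryl-CoA dehydrogenase of the valine path, at 1.61-fold.

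The propionyl-CoA path, which carries carbon of isoleucine and valine on to the citrate cycle, held 6 genes. All 6 were at least 2-fold up in MWA against SPA and 3 at least 5-fold up. Of all genes, 15.7% and 5.47% passed these limits. The 2 subunits of propionyl-CoA carboxylase read -1.1, -0.86 and 1.98 for Pcca and -2.32, -1.9 and 0.91 for Pccb. Their folds were 7.19 and 6.98. Mcee, methylmalonyl-CoA epimerase, was 5.36-fold higher and Mmab, of cobalamin supply, had the lowest ratio at 2.46-fold. Its other probes did not agree on a direction, with 1 at 2.41-fold higher and 1 at 1.15-fold lower in MWA.

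The kinase and the phosphatase that act on BCKDH and its E3 subunit were read beside the E1 and E2 genes. Bckdk encodes the kinase that switches the complex off, and it read 1.95 in SVC, 1.75 in SPA and 1.78 in MWA, a fold of 1.02 between SPA and MWA. Ppm1k encodes the opposing phosphatase and is named because the list is short, after its values were seen. It read 8.58, 8.63 and 8.79, a fold of 1.12, while a second probe, at -3.49, -3.61 and -1.9, was 3.27-fold higher in MWA. Dld, the E3 subunit that BCKDH shares with other dehydrogenase complexes, read 1.28, 1.36 and 2.52, a fold of 2.23. Klf15, a transcription factor known to act on genes of amino acid breakdown, read -2.2, -2.13 and 1.58, a fold of 13.1. Bckdk thus read nearly the same in SPA and MWA, the reading of Ppm1k turned on the probe, and Dld and Klf15 were higher in MWA, each on 1 probe.

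Carriers of branched-chain amino acids went both ways, with 2 higher in MWA than in SPA and 4 lower. Of these 6 genes, 1 passed 5-fold in favour of MWA, against 5.47% of all genes. Another 3 were at least 2-fold lower there than in SPA, against 18.0%. Other probes of those 3 genes ranged from 1.04-fold to 4.46-fold lower. Slc43a1, a plasma membrane carrier of large neutral amino acids, read -2.39 in SVC, -3.86 in SPA and 0.13 in MWA, a fold of 15.9. Its second probe, at -4.36, -3.74 and -3.16, gave 1.5-fold, so the 5-fold call rests on 1 of 2 probes. Slc7a8, another such carrier, had the lowest ratio, at 1.2, 1.32 and 0.07, or 2.38-fold lower in MWA. Between SPA and SVC, Slc43a2 was the highest of the list, at 1.87 against 0.58, and Slc43a1 the lowest. For Slc43a1 that direction turned with the probe, from -1.47 to 0.62 on the log2 scale.

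**Figure D4:**
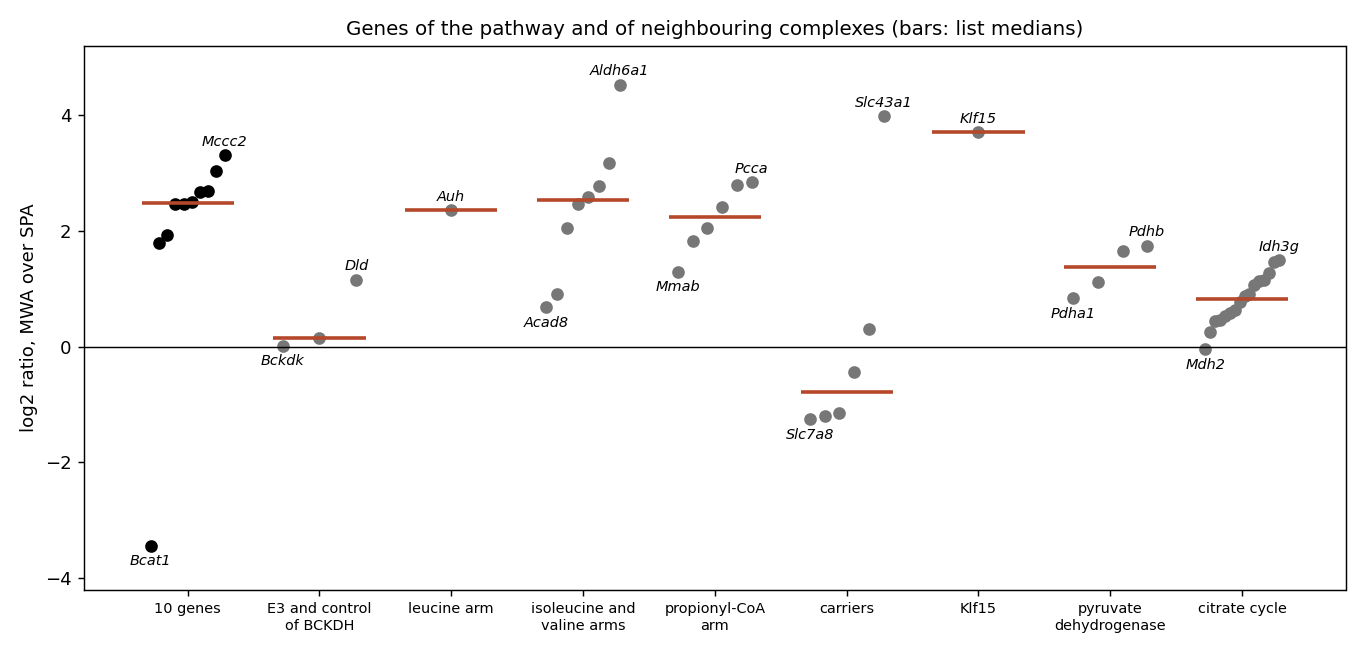
Log2 ratio of MWA over SPA (y axis) of each gene in 9 lists (x axis), with the highest and the lowest gene of each list named and a bar at the list median. The enzyme lists lie above 0 apart from Bcat1 and Mdh2, and the medians of pyruvate dehydrogenase and the citrate cycle, 1.38 and 0.83, are below the 2.49 of the 10 genes.

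The 2 lists of other mitochondrial enzymes that were read for comparison had smaller median ratios than the 10 genes. The pyruvate dehydrogenase complex, built like BCKDH and sharing its E3 subunit, had a median log2 ratio of MWA over SPA of 1.38 over 4 genes. The highest was Pdhb, at 3.38-fold, close to the 3.46-fold of Dbt, and the lowest Pdha1, at 1.79-fold, with 0 of 4 past 5-fold. The citrate cycle had a median of 0.83 over 16 genes, from -0.04 for Mdh2 to 1.5 for Idh3g, and 0 of 16 past 5-fold. Of all genes, 5.47% passed 5-fold in favour of MWA, so counts of 0 in lists this short do not set them apart. The difference of these medians from the 2.49 of the 10 genes was not tested.

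By likeness of pattern, measured as the distance between genes in the 2 log2 ratios SPA over SVC and MWA over SPA, the 3 genes nearest to Bcat1 among 13130 were Dscc1, Bard1 and Fanci, at 0.076, 0.09 and 0.112. All are known from DNA replication or repair. The distance was taken at 1 of the 4 probes of Bcat1. Its other 3 had log2 ratios of MWA over SPA from -2.1 to -1.52, so the nearness holds for the read probe only. The 6 markers of cycling cells were lower in MWA than in SPA as well. All 6 were at least 2-fold lower and 5 at least 5-fold, against 18.0% and 3.97% of all genes. These markers had a summed signal of 73.9 in SVC, 44.5 in SPA and 5.56 in MWA. Their part in the level of Bcat1 was not tested. The 3 genes nearest to Bcat2 were Tmem135, H2-Ke6 and Clybl, at 0.019, 0.044 and 0.045. With 3 arrays many genes lie this close, 22 within 0.25 of Bcat1 and 49 of Bcat2.

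The stretches upstream of Ivd, Mccc1 and Mccc2 are shown as the windows with the most matches to a short motif, with the first window of Bcat1 beside them. RefSeq sequence of the build GRCm38.p6, the 250 bases before a transcript start, was at hand for 9 of the 10 genes in 12 windows. The letters CCAAT were searched on both strands, as CCAAT or ATTGG, and overlapping matches count separately. The letters were picked after the sequences had been seen. They occur in 6 of the 12 windows, or 50.0%, and in 33.8% of all 32851 windows of that length. Ivd has 4 matches, Mccc1 has 3 and Mccc2 has 3, of which a pair overlap. Of all windows, 2.79% have 3 or more, a share set beside letters picked with these windows in view. The first window of Bckdhb has 2 matches and that of Hibadh has 1. Bcat1, the gene that was lower, has 1 in the first of its 2 windows. The windows of Bcat2, Bckdha and Hibch, which were higher in MWA, have 0. The letters AAGGTCA were also searched and occur in 0 of the 12 windows and in 4.08% of all. A match is a description of the letters and not of binding. The windows are chr2:118861744-118861993 on the plus strand for Ivd, and on the minus strand chr3:36000679-36000928 for Mccc1, chr13:100015640-100015889 for Mccc2 and chr6:145076158-145076407 for Bcat1, each printed 5′ to 3′ with the matches in capitals.
Ivd: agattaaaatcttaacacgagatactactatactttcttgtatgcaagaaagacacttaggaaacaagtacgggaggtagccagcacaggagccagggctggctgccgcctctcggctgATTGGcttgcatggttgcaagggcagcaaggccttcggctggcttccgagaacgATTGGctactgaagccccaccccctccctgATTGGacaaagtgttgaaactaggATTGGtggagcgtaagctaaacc
Mccc1: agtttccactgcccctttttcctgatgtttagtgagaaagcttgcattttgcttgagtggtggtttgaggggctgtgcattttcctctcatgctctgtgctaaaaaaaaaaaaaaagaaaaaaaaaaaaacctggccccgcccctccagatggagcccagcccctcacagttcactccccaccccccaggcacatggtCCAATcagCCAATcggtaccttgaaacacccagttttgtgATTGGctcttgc
Mccc2: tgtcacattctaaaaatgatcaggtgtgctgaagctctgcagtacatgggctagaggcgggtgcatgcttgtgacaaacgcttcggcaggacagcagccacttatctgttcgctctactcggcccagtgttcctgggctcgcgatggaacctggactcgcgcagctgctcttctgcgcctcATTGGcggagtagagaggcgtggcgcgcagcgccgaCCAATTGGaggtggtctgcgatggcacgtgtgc
Bcat1: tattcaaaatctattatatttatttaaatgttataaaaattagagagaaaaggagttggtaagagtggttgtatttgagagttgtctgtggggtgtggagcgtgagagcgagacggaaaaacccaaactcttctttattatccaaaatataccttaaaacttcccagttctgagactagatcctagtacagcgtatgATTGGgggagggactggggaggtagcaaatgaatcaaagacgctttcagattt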

How the data were processed

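Total RNA of SVC, SPA and MWA was labelled with Cy3 from 50 ng and hybridised to 1 array each, all on 1 slide and read in 1 scan. The authors deposited spot intensity from Agilent Feature Extraction 10.7.3.1 (submitters' processing notes), background-subtracted and detrended within the array, and for each spot a ratio of that intensity to a constant per array. Samples were grouped by their source names. Control spots were left out, and each array was scaled to the 75th percentile of all its other spots (430.4, 439.1 and 365.8). Outlier spots (75, 98 and 129 per array) were then left out, and spots of a probe were averaged on the log2 scale. Of 59305 spots that are not controls, 58.6% to 61.4% were well above background. A probe dim on 1 array gave a bound, taken at the lowest signal well above background there, or at its own signal where that was higher. Names were updated through accessions for 32994 of 56605 probes, which renamed none of the 19 probes matched among the 25 of the 10 genes. A gene passed where the fold or its bound reached 5, the study's limit, or 2. The ratio code was tested on simulated data. The 10 genes are all named, and others where they were the highest or lowest of their list, passed 5-fold, or were among the 3 nearest in pattern. The members and lists were chosen with earlier results of these data known. Of the listed genes, 1 is not reported here and was left out of the counts, Hbb-bs was not read, and Mut and Emr1 are older names of Mmut and Adgre1, counted once. The 9 alternatives were normexp (offset 50, limma 3.58.1, R 4.3.3), quantile scaling, another percentile base, the deposited ratios, other filters on dim probes, other ways to combine probes, and leaving out spots with outlying background. The rest was run in Python 3.11.15 with pandas 2.3.3.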

Additional observations from a re-analysis of the deposited data

How the results depend on the processing

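Each of the 10 genes kept the sign of its ratio in all 3 comparisons under the 9 alternatives. In MWA against SPA or SVC each stayed past 2-fold. Not all 9 could turn a sign. The filters on dim probes and on outlying background left these ratios unchanged, because each read probe was well above background and unmarked. The deposited ratios and the other percentile base only shifted each array by a constant. The largest ratio in the direction asked cannot turn a sign. Single probes of Bcat1, Bcat2, Mccc1 and Hibch departed from the read probe, as given above. Of the 10 genes, only Bcat1 changed its 5-fold call, and only with the median over probes. With the median over the probes of a gene, its log2 ratio was -1.84 for MWA over SPA and -2.24 for MWA over SVC, and the count of genes at least 5-fold lower fell from 1 to 0 in both comparisons. With the probe that had the largest ratio in the direction asked, 2 genes were at least 2-fold lower in both comparisons, because the discordant Mccc1 probe was then counted. The median ratio of MWA over SPA, 2.49, became 2.57 with quantile normalization, 2.56 with the percentile taken over well-measured probes only and 2.62 with the largest ratio. That of MWA over SVC, 2.91, became 2.75 with normexp and 3.04 with the largest ratio. Of the other enzymes, 6 and not 9 passed 5-fold in favour of MWA over SPA at the median over probes, an alternative added after the data were seen. The other counts and medians moved by less than the spread between repeated spots or by under 1.5 times. Dim probes are limited by signal over background, and with 1 array per fraction the spread between animals is unknown. No paired analysis was possible because each fraction has 1 array.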
